A study of Mus musculus with 10 samples.

Results

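Interferon-stimulated genes are the genes that cells switch on when interferons reach them, and their level was compared here among untreated mouse macrophages of 6 tissues and macrophages grown from bone marrow. The set is a list of 37 symbols. In it, 30 genes were taken as type I style (the antiviral genes of the interferon alpha and beta response) and 7 as type II style (GTPases and antigen processing genes that are known best from the interferon gamma response). Of the 37 genes, 32 had a listed probe, among 17711 named genes on the array, and each was represented by its brightest probe over the 10 arrays. Oas1a, Isg15, Usp18, Ifi44 and Gbp2 had none and were not analysed here. Ifit1, Ifih1 and Rtp4 were detected on no array, which left 29 genes that could be tested, 23 of type I style and 6 of type II style. These 29 are therefore the listed genes with signal on at least 1 array, not all of them.

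RNA was hybridised to Illumina bead arrays, which read the brightness of gene-specific probes. The mice were male C57BL/6, an inbred strain, 8 to 10 weeks old by the labels, and no treatment was given to any group. The groups with 2 arrays were the macrophages of the peritoneum, of the small intestine and of adipose tissue. Those with 1 were alveolar macrophages (lung), Kupffer cells (liver), red pulp macrophages of the spleen and, from bone marrow, the derived macrophages called BMDM. The BMDM alone came from culture, 7 days with M-CSF, the growth factor that macrophages depend on. Nothing in the labels says whether paired arrays hold separate animals. The p-values below therefore measure the spread between arrays, which may be technical, and the 4 groups with 1 array were assumed to vary like the other 3. In bulk samples of this kind, fewer cells of a type and less RNA per cell cannot be told apart.

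As background, type I interferons bind the receptor made of Ifnar1 and Ifnar2, whose kinases activate transcription factors, Stat2 and Irf9 among them, that bind the interferon-stimulated response element (ISRE) of antiviral genes. Interferon gamma binds Ifngr1 and Ifngr2 and acts through another element, GAS, and through Irf1. Many genes respond to both kinds of interferon, so the type II style genes are not exclusive to interferon gamma. Macrophages are known to keep a low level of such genes without infection, through small amounts of interferon in the tissue.

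The promoters of 6 genes with results below are shown. They were chosen because they hold ISRE letters and differ in where the gene was high. They are RefSeq windows of 300 bases on GRCm38.p6, from 250 bases before to 50 bases after a start of the gene, each read 5′ to 3′ on the strand of the gene. That start need not be the outer end of the gene: Ifit3 as annotated begins at 34583119, before its window. Ifit2 and Gbp3 had 2 windows and Isg20 had 3, and the Gbp3 window printed is the one with matches. Capitals mark each match to the ISRE letters, which are GAAA, any 2 bases and GAAA again, or to their reverse complement.
Rsad2 (chr12:26456403-26456702, minus strand): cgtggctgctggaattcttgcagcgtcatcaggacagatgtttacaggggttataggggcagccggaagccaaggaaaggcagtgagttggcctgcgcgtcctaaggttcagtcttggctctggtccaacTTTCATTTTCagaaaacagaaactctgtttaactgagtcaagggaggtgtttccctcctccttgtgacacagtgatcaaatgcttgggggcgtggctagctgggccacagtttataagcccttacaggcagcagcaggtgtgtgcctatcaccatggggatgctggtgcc
Ifit3 (chr19:34583279-34583578, plus strand): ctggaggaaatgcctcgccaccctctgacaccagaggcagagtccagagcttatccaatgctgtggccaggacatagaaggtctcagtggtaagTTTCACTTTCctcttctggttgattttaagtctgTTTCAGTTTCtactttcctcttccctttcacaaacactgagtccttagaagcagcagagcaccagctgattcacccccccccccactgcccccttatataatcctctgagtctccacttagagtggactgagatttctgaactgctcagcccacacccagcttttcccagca
Oas3 (chr5:120777610-120777909, minus strand): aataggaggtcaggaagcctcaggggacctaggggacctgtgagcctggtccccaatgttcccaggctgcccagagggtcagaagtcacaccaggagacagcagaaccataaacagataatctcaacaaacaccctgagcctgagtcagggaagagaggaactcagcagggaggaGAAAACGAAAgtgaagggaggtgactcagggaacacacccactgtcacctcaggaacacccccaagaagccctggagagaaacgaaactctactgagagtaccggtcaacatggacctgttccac
Ifitm3 (chr7:141010695-141010994, minus strand): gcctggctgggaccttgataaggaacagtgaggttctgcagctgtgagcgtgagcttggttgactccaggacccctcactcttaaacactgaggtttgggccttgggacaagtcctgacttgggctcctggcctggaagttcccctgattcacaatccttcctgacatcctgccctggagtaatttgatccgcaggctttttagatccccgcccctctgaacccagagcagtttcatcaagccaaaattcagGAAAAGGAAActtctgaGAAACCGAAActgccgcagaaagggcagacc
Gbp3 (chr3:142559794-142560093, plus strand): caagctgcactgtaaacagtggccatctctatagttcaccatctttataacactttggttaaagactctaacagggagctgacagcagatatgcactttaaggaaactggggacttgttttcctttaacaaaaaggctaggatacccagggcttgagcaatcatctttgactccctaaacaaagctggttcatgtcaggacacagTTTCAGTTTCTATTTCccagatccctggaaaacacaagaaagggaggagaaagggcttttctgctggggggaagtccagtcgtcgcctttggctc
Irgm1 (chr11:48871371-48871670, minus strand): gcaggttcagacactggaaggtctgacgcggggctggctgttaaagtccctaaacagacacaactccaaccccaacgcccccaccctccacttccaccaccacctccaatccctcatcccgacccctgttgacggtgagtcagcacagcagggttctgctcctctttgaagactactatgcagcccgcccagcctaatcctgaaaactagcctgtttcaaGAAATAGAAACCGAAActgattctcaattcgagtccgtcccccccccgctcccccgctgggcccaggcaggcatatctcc
In Gbp3 and Irgm1 the 2 matches overlap and form a run of capitals. The ISRE letters were found in 16 of the 28 listed genes that had a window (57.1%), against 3.99% of all 27025 genes with windows. By subset they were found in 12 of 21 type I style genes and in 4 of 7 type II style genes, 57.1% of each. Of the 22 tested genes with a window, 11 held them. Ifit2, Oasl1, Oasl2, Isg20, Cmpk2, Ifi35, Ifi47, Xaf1, Samd9l, Tap1 and Psmb8 held none, so the printed windows do not stand for all genes with results below. The GAS letters TTCNNNGAA, searched in the same way on both strands, were found in 9 of 28 genes (32.1%), against 9.55% of all genes, and 2 of the 9 matches overlap an ISRE match. By subset these were 7 of 21 type I style genes (33.3%) and 2 of 7 type II style genes (28.6%). A match describes these letters in these windows and shows no bound factor.

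Between 22.6% and 26.4% of probes were detected per array, with the lowest share on the alveolar array, and between 15 (alveolar) and 28 (BMDM) of the 32 genes with a probe. The median raw signal formed a dimmer set of 5 arrays (89.8 to 107.9), which held the 4 single arrays and peritoneal replicate 1, and a brighter set with the other 5 (135.7 to 166.5). The 4 pan-macrophage genes on the array (Adgre1, Mertk, Fcgr1 and Cd14) were detected on every array. Of the tissue markers, Gata6 was detected only in the peritoneal arrays, Krt79 only in the alveolar array and Clec4f only in the Kupffer array, whose Cd5l probe was not detected. Spic was highest in the spleen (12.09) and Cx3cr1 in the intestine (13.59 and 13.47). Icam2, Car4, Vsig4, Vcam1, Treml4 and Slc40a1 were also highest in the tissue they are listed for. Other listed markers were not: Il10 was highest in Kupffer cells (10.77), and Cd163 was undetected in the intestine. Cd93 was highest in BMDM (13.41), and Timd4 was as high in peritoneum (11.47 and 12.02) as in Kupffer cells (11.53). Marco was near-equal in alveolar (10.52), Kupffer (10.39) and peritoneal macrophages (9.98 and 10.41). All levels are log2 values after background correction and quantile normalization, and levels of different genes were not set against each other. Within pairs, the SD of the difference over the 29 genes was 0.415 for the peritoneal pair, split between both sets, 0.171 in the intestine and 0.221 in adipose tissue.

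Most of the interferon-stimulated genes had their highest level in BMDM and their lowest in alveolar macrophages. Among the 7 groups, 28 of the 29 genes differed (limma F test, adjusted p under 0.05), against 79.6% of all 12838 transcripts tested, so a difference of some kind was the rule on this array. The exception was Xaf1 (adjusted p = 0.0673). BMDM held the highest mean for 19 of the 29 genes, against 21.2% of all transcripts, and alveolar macrophages the lowest for 23, against 16.2%. Of those 23, 11 were detected on the alveolar array and 4 were undetected there alone. The other 8 were undetected there and in at least 1 other group, so their order at the bottom is one of background values. Neighbours in the order of levels were often not separated: 44 of 174 adjacent pairs of groups passed the test.

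**Figure D1:**
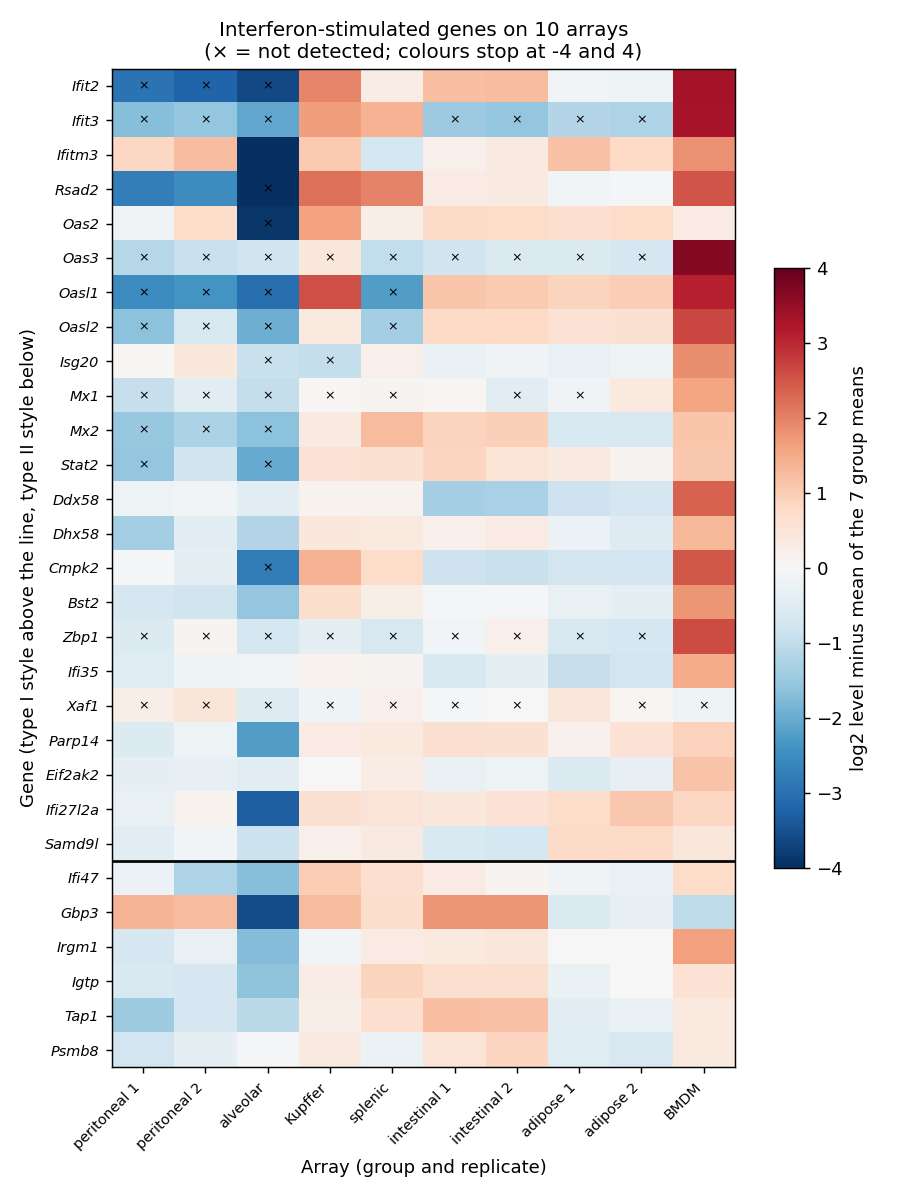
Level of each of the 29 tested genes (rows) on each of the 10 arrays (columns), as the log2 difference from the mean of the 7 group means. Red is higher, blue is lower, colours stop at -4 and 4, and a cross marks an array on which the probe was not detected. The BMDM column is red for most genes above the line, and the alveolar column is blue, whereas Gbp3 is blue in both.

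In a comparison of each group with the mean of the other 6, 23 of the 29 genes were higher in BMDM, where 22.8% of all transcripts were, and 1 was lower, where 29.7% were (limma, Benjamini-Hochberg adjustment). The median difference of the 29 genes was 1.74, against -0.12 over all transcripts. In alveolar macrophages 25 were lower and 0 higher, against 20% and 16.3% of all transcripts, with a median of -1.92 against -0.07. Peritoneal macrophages had 17 lower and 3 higher (23.6% and 20.9% of all transcripts), with a median of -0.67 against -0.02. With arrays scaled to a common median the counts were 17 higher and 1 lower in BMDM, 0 and 23 in alveolar macrophages and 2 and 10 in peritoneum.

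Kupffer cells had 11 genes higher and 1 lower, where 14.4% and 15.3% of all transcripts were, and their median was 0.46. Splenic macrophages had 6 higher and 4 lower (19.3% and 20.4%), near the background in both directions. Intestinal macrophages had 14 higher and 6 lower (24.8% and 22%), with a median of 0.33. Adipose tissue macrophages had 5 higher and 11 lower (22.2% and 20.5%), with a median of -0.26. With arrays scaled to a common median instead of quantiles, adipose tissue had 12 genes higher and 3 lower, but the median of all transcripts there moved to 0.72 too. Relative to it the adipose medians were -0.23 for type I and -0.19 for type II style genes, against -0.19 and -0.35 under quantiles, so the turn in calls came with a shift of all transcripts. The same scaling gave 16 higher and 3 lower in the intestine, where the median of all transcripts moved to 0.58. It gave 5 higher and 0 lower in Kupffer cells and 3 and 3 in the spleen.

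Of the 29 genes, 13 were higher in BMDM than in each of the other 6 groups taken one by one, where 5.97% of all transcripts were. They were Ifit2, Ifit3, Oas3, Oasl2, Isg20, Mx1, Ddx58, Cmpk2, Bst2, Zbp1, Ifi35, Eif2ak2 and, as the type II style gene among them, Irgm1. Oas3 and Zbp1 passed the detection filter through the BMDM array alone. Their place in this and the earlier BMDM counts therefore followed from the filter in part. Alveolar macrophages were lower than each other group for 10 genes, against 2.15% of all transcripts: Ifitm3, Rsad2, Oas2, Cmpk2, Bst2, Parp14, Ifi27l2a, Gbp3, Irgm1 and Igtp. Intestinal macrophages were lower than each other group for Ddx58 (1.48% of all transcripts) by its brightest probe, which a second probe did not follow. No gene of the list was higher than in each other group in any of the 6 tissues, by this test, where between 1.86% and 3.93% of all transcripts were.

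The IFIT proteins bind foreign RNA and hold back its translation. Ifit2 (probe ILMN_2667597) measured 5.46 and 5.20 in peritoneal, 4.81 in alveolar, 10.38 in Kupffer, 8.72 in splenic, 9.63 and 9.64 in intestinal and 8.29 and 8.23 in adipose macrophages and 11.75 in BMDM. It was not detected on the peritoneal and alveolar arrays, and the arrays of the groups with signal did not overlap. Where every array of a group missed a gene, a fold is given as a bound against the lowest normalised signal of detected probes on those arrays. Ifit2 was at least 11.3-fold higher in BMDM than in the mean of the other groups (log2 difference 3.90 ± 0.17 SE, adjusted p = 1.3e-05). BMDM exceeded Kupffer cells, the next group, 2.59-fold (adjusted p = 0.00274), and Kupffer cells exceeded intestinal macrophages 1.68-fold (adjusted p = 0.0246). Spleen and adipose tissue were not separated (adjusted p = 0.106).

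Ifit3 (probe ILMN_1230458), the partner that stabilises IFIT complexes, had signal in fewer groups than Ifit2. It measured 5.18 and 5.32 in peritoneal, 4.80 in alveolar, 8.55 in Kupffer, 8.27 in splenic, 5.42 and 5.31 in intestinal and 5.71 and 5.65 in adipose macrophages and 10.18 in BMDM. Only the Kupffer, splenic and BMDM arrays detected it, so that the intestinal and adipose arrays, which had clear Ifit2, lay with the peritoneal and alveolar arrays for Ifit3. BMDM exceeded Kupffer cells 3.11-fold (adjusted p = 0.00103), whereas Kupffer cells and spleen were not separated (adjusted p = 0.429). Against the mean of the others, Ifit3 was at least 10.2-fold higher in BMDM, at least 2.71-fold higher in Kupffer cells, at least 2.17-fold higher in spleen, at least 2.42-fold lower in intestine, at least 2.32-fold lower in adipose tissue and at least 1.98-fold lower in peritoneum. A further Ifit3 probe was detected on no array, so this pattern rests on 1 probe. The Ifit1 probe was detected on no array, at levels between 4.47 and 4.72.

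Rsad2, the antiviral enzyme viperin, and Cmpk2, a mitochondrial nucleotide kinase whose gene neighbours it, were lowest in the same group. Rsad2 (probe ILMN_1225204) measured 7.05 and 7.31 in peritoneal, 5.48 in alveolar, 12.04 in Kupffer, 11.82 in splenic, 10.16 and 10.17 in intestinal and 9.73 and 9.79 in adipose macrophages and 12.35 in BMDM. BMDM, Kupffer cells and spleen formed an upper group, intestine and adipose tissue a middle one, and peritoneum a lower one, with no detection on the alveolar array. The neighbours within the upper group were not separated (adjusted p = 0.317 and 0.555), and spleen exceeded intestine 3.13-fold (adjusted p = 0.000685). Adipose tissue exceeded peritoneum 5.99-fold (adjusted p = 2.55e-05). Alveolar macrophages were at least 18.6-fold lower than the mean of the others (log2 difference -5.07 ± 0.17 SE, adjusted p = 3.99e-06).

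Cmpk2 measured 7.96 and 7.67 in peritoneal, 5.22 in alveolar, 9.42 in Kupffer, 8.76 in splenic, 7.20 and 7.14 in intestinal and 7.28 and 7.27 in adipose macrophages and 10.52 in BMDM, and it was not detected on the alveolar array. Its order differed from that of Rsad2 in the middle, because both peritoneal arrays lay above all intestinal and adipose arrays. BMDM exceeded Kupffer cells 2.14-fold (adjusted p = 0.00805), and Kupffer cells and spleen were not separated (adjusted p = 0.088).

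**Figure D2:**
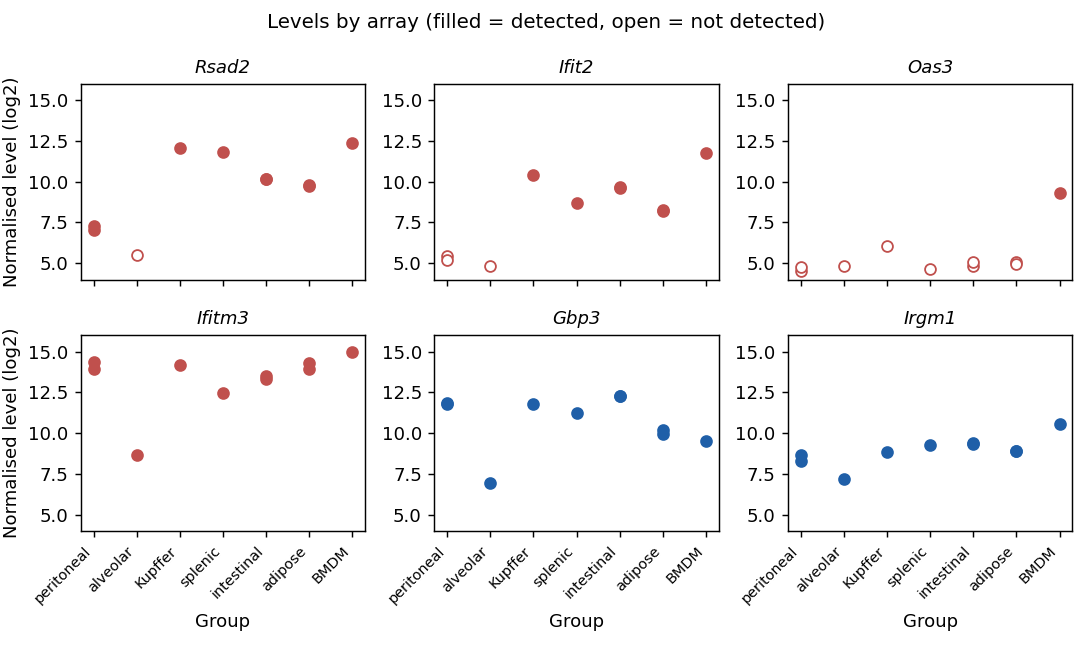
Normalised log2 level of Rsad2, Ifit2, Oas3, Ifitm3, Gbp3 and Irgm1 on each array, by group. Filled points were detected and open points were not. Oas3 was detected only in BMDM (9.31), Ifitm3 was lowest in alveolar macrophages (8.66), with spleen next (12.44) and the other arrays between 13.35 and 14.97, and Gbp3 was highest in the intestine (12.30 and 12.29).

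The oligoadenylate synthetases make the signal that activates RNase L, and the OAS-like proteins are their relatives. Members of the family differed in where they were found. Oas3 (probe ILMN_1216020) was detected only in BMDM, at 9.31, against 4.51 to 6.08 on the other 9 arrays. It was at least 9.14-fold higher there (log2 difference 4.27 ± 0.18 SE). Oas3 passed the detection filter through the BMDM array alone, so it could enter only as a gene high there, and no p-value is given. A further Oas3 probe was detected on no array, so this pattern rests on 1 probe.

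Oas2 did not follow Oas3. It measured 8.28 and 9.15 in peritoneal, 4.53 in alveolar, 10.04 in Kupffer, 8.65 in splenic, 9.17 and 9.14 in intestinal and 9.06 and 9.16 in adipose macrophages and 8.74 in BMDM, without detection on the alveolar array. Kupffer cells exceeded BMDM 2.47-fold (adjusted p = 0.0313), the reverse of the order of the 2 groups for Oas3. Alveolar macrophages were at least 6.65-fold lower than the mean of the others (log2 difference -4.54 ± 0.29 SE, adjusted p = 4.22e-05).

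Oasl1, which in mice holds back translation of Irf7, measured 5.01 and 5.14 in peritoneal, 4.53 in alveolar, 10.12 in Kupffer, 5.32 in splenic, 8.66 and 8.60 in intestinal and 8.44 and 8.54 in adipose macrophages and 10.65 in BMDM. It was not detected in peritoneal, alveolar and splenic macrophages, so spleen and Kupffer cells, which were not separated for Rsad2 and Ifit3, lay apart here. Kupffer cells were at least 5.18-fold higher (log2 difference 3.01 ± 0.16 SE, adjusted p = 2.93e-05) and splenic macrophages at least 3.2-fold lower (-2.60 ± 0.16 SE, adjusted p = 3.74e-05) than the mean of the other groups. BMDM and Kupffer cells were not separated (adjusted p = 0.0861). Oasl2 measured 4.82 and 5.79 in peritoneal, 4.50 in alveolar, 6.84 in Kupffer, 5.08 in splenic, 7.24 and 7.23 in intestinal and 7.01 and 7.06 in adipose macrophages and 9.12 in BMDM. It too was missed in peritoneal, alveolar and splenic macrophages, and BMDM exceeded intestine, the next group, 3.67-fold (adjusted p = 0.00434). The second probes of Oasl1 and Oasl2 were detected on 2 and 1 arrays and are not informative for the remaining arrays.

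Ifitm3, a membrane protein that blocks virus entry, and Bst2, the tether that holds virions at the cell surface, were detected on every array. Ifitm3 (probe ILMN_1218727) measured 13.96 and 14.39 in peritoneal, 8.66 in alveolar, 14.19 in Kupffer, 12.44 in splenic, 13.35 and 13.50 in intestinal and 14.33 and 13.94 in adipose macrophages and 14.97 in BMDM. The alveolar array lay apart from all others, and the next lowest, spleen, exceeded it 13.8-fold (adjusted p = 0.000109). Against the mean of the others it was 37.6-fold lower in alveolar macrophages (log2 difference -5.23 ± 0.23 SE, adjusted p = 8.8e-06). A second Ifitm3 probe, detected on every array, gave the same pattern (r = 0.991 over the 10 arrays). Ifitm3 was 2.31-fold higher in peritoneal macrophages (log2 difference 1.21), but without the alveolar array the difference was 0.35 and no longer passed (adjusted p = 0.147). In spleen it was 1.76-fold lower.

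Bst2 measured 12.14 and 12.01 in peritoneal, 11.24 in alveolar, 13.49 in Kupffer, 13.05 in splenic, 12.71 and 12.73 in intestinal and 12.51 and 12.45 in adipose macrophages and 14.56 in BMDM. BMDM exceeded Kupffer cells, the next group, 2.1-fold (adjusted p = 0.00588), and peritoneal macrophages exceeded alveolar ones 1.79-fold (adjusted p = 0.0106). Of all 23 type I style genes, Bst2 followed the mean of the other 22 most closely (r = 0.969 over the 10 arrays), and Xaf1 least (r = 0.00567).

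Ddx58, Dhx58 and Zbp1, listed genes that sense foreign nucleic acid, had their highest level in BMDM. Ddx58, the RNA sensor RIG-I, measured 7.29 and 7.39 in peritoneal, 7.06 in alveolar, 7.62 in Kupffer, 7.64 in splenic, 6.17 and 6.20 in intestinal and 6.66 and 6.81 in adipose macrophages and 9.84 in BMDM. BMDM exceeded spleen, the next group, 4.61-fold (adjusted p = 0.000226), and the intestinal arrays lay below all others. Against the mean of the other groups, Ddx58 was 2.87-fold lower in the intestine. These values rest on 1 probe. A second Ddx58 probe, detected on 7 arrays (r = 0.297 with the first), gave 7.19 in BMDM, 6.85 in Kupffer cells, 6.25 and 6.46 in the intestine and 4.67 in alveolar macrophages. With the mean of all its probes, the BMDM difference was 0.99 (adjusted p = 0.00427) and the intestinal one -0.28 (adjusted p = 0.117), and BMDM and Kupffer cells were not separated (adjusted p = 0.101).

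Dhx58, the relative of RIG-I known as LGP2, measured 8.52 and 9.46 in peritoneal, 8.70 in alveolar, 10.30 in Kupffer, 10.26 in splenic, 10.07 and 10.20 in intestinal and 9.62 and 9.36 in adipose macrophages and 11.20 in BMDM, and was 2.93-fold higher in BMDM. Zbp1, a sensor of Z-form nucleic acids, was detected only on the BMDM array, at 8.05, against 4.72 to 5.63 on the other arrays. Its bound in BMDM was at least 3.8-fold higher (log2 difference 3.05 ± 0.26 SE). Like Oas3, Zbp1 passed the detection filter through the BMDM array alone, and no p-value is given. Stat2, which carries the type I signal, was not detected in alveolar macrophages and peritoneal replicate 1, and measured between 6.71 and 8.58 on the other arrays.

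Among the remaining type I style genes, Isg20, an RNA exonuclease, measured 6.54 and 6.91 in peritoneal, 5.62 in alveolar, 5.56 in Kupffer, 6.71 in splenic, 6.24 and 6.37 in intestinal and 6.19 and 6.31 in adipose macrophages and 8.35 in BMDM. It was missed on the alveolar and Kupffer arrays, and in Kupffer cells it was the gene that went against the others (at least 1.3-fold lower). Mx1 and Mx2 are dynamin-like antiviral GTPases, of which at least Mx1 is defective in this strain. Mx1 was detected on 3 arrays (5.90 on intestinal replicate 1, 6.24 on adipose replicate 2 and 7.40 in BMDM). Mx2 was highest in spleen (8.26) and BMDM (8.10), which were not separated (adjusted p = 0.591), and was not detected on the peritoneal and alveolar arrays.

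Ifi27l2a measured 11.48 and 11.90 in peritoneal, 8.48 in alveolar, 12.38 in Kupffer, 12.28 in splenic, 12.20 and 12.34 in intestinal and 12.51 and 12.85 in adipose macrophages and 12.61 in BMDM. All arrays but the alveolar one lay within 1.37 of each other, and alveolar macrophages were 14.3-fold lower (log2 difference -3.84 ± 0.22 SE, adjusted p = 2.52e-05). Parp14, an ADP-ribosyltransferase, was likewise 6.08-fold lower there. Further Parp14 probes, detected on 9 and 2 arrays, followed the probe used only in part (r = 0.511 and 0.303). Eif2ak2, the kinase PKR that halts translation, spanned less (9.03 to 10.76) and was 2.53-fold higher in BMDM. Samd9l differed in order from the others: it was highest in adipose tissue (11.47 and 11.46), not separated from BMDM at 11.15 (adjusted p = 0.26). Ifi35 was 3.34-fold higher in BMDM (10.27, against 7.85 to 8.91 on the other arrays) and was not called in alveolar macrophages (-0.12, adjusted p = 0.667). Xaf1 was detected on adipose replicate 1 alone (5.87), with 4.90 to 5.90 on the other arrays, and its call as higher in peritoneum is of undetected signal.

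The type II style genes were ordered otherwise, with intestinal macrophages in the upper part. Gbp3, a guanylate-binding GTPase that attacks the vacuoles of intracellular microbes, measured 11.88 and 11.79 in peritoneal, 6.97 in alveolar, 11.80 in Kupffer, 11.22 in splenic, 12.30 and 12.29 in intestinal and 9.96 and 10.21 in adipose macrophages and 9.52 in BMDM (probe ILMN_1244513). Intestine was highest and exceeded peritoneum 1.38-fold (adjusted p = 0.0495), but it was not separated from Kupffer cells. BMDM lay below all tissues but the lung, and the alveolar array was far below. Against the mean of the others, Gbp3 was 4.17-fold higher in intestine (2.06 ± 0.13 SE, adjusted p = 2.53e-05), 2.87-fold higher in peritoneum, 17.9-fold lower in alveolar macrophages and 2.27-fold lower in BMDM. It was the gene of the list that was lower in BMDM.

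The immunity-related GTPases Irgm1, Igtp and Ifi47, which act on the same vacuoles, did not share one order. Irgm1 measured 8.28 and 8.65 in peritoneal, 7.22 in alveolar, 8.83 in Kupffer, 9.27 in splenic, 9.34 and 9.40 in intestinal and 8.94 and 8.93 in adipose macrophages and 10.59 in BMDM. BMDM exceeded intestine, the next group, 2.33-fold, so Irgm1 shared its top group with most type I style genes. Below BMDM the order differed: Irgm1 had intestine next and Kupffer cells below spleen and adipose tissue. By mean rank over the type I style genes, Kupffer cells (3.09) stood above intestine (4). Igtp measured 9.25 and 9.19 in peritoneal, 8.23 in alveolar, 10.13 in Kupffer, 10.73 in splenic, 10.48 and 10.49 in intestinal and 9.57 and 9.83 in adipose macrophages and 10.43 in BMDM, and spleen and intestine at its top were not separated (adjusted p = 0.354). Ifi47 measured 8.21 and 7.19 in peritoneal, 6.74 in alveolar, 9.44 in Kupffer, 9.10 in splenic, 8.77 and 8.55 in intestinal and 8.28 and 8.14 in adipose macrophages and 9.18 in BMDM, and its 2 peritoneal arrays differed by 1.03, the widest gap within a pair among the 29 genes.

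Tap1 carries peptides into the endoplasmic reticulum for class I antigen presentation, and Psmb8 is a catalytic subunit of the immunoproteasome that makes them. Tap1 measured 7.17 and 7.91 in peritoneal, 7.52 in alveolar, 8.82 in Kupffer, 9.26 in splenic, 9.79 and 9.76 in intestinal and 8.15 and 8.31 in adipose macrophages and 8.97 in BMDM, and intestine exceeded peritoneum 4.71-fold (adjusted p = 0.000318) and adipose tissue 2.9-fold (adjusted p = 0.00322). Psmb8 measured 12.16 and 12.55 in peritoneal, 12.87 in alveolar, 13.28 in Kupffer, 12.70 in splenic, 13.49 and 13.79 in intestinal and 12.46 and 12.28 in adipose macrophages and 13.34 in BMDM, with intestine 1.77-fold higher than the mean of the others (adjusted p = 0.00549). Further Psmb8 probes, detected on every array, had r = 0.927 and, less close, r = 0.608 with the probe used. The alveolar level of Psmb8 (12.87) lay above both peritoneal and both adipose arrays, and the gene was not called in alveolar macrophages (-0.08, adjusted p = 0.785). Intestine and BMDM were not separated for Psmb8, nor intestine and spleen for Tap1 (adjusted p = 0.336 and 0.221).

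The 2 subsets were then set side by side by tissue, as medians over their genes with no test. In BMDM the type I style median was 2.05 above the mean of the other groups and the type II style median 0.57. Oas3 and Zbp1, which passed the detection filter through the BMDM array alone, are among these type I style genes. The BMDM type I style values here and below therefore followed from the filter in part. With detection on at least 2 arrays that median was 1.94. In the intestine the order turned, with 0.04 for type I and 0.78 for type II style genes. It turned in spleen as well, with 0.29 and 0.78. In alveolar macrophages both were below 0, at -1.92 and -1.93, and in the peritoneum they were -0.44 and -0.70. All 6 type II style genes but 9 of the 23 type I style genes were detected on the alveolar array, so its type I style values here and below include background signal. With undetected groups at their bound, the type I style median was -1.12 in alveolar macrophages and 1.92 in BMDM and kept its value in the other groups. Kupffer cells had 0.50 and 0.37, and adipose tissue -0.18 and -0.34. Over all transcripts these medians lay between -0.12 and 0.01.

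**Figure D3:**
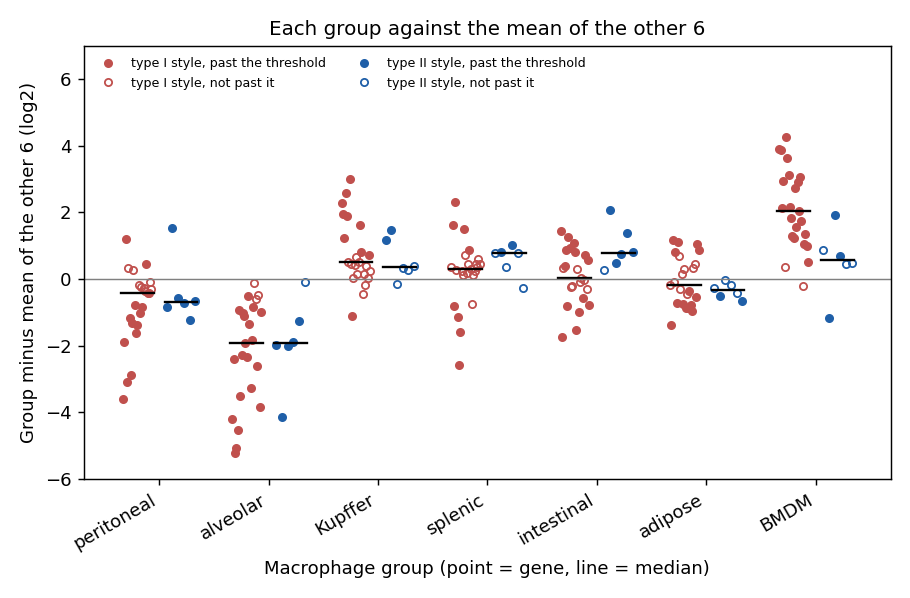
Difference of each group from the mean of the other 6 (log2) for each of the 23 type I style (red) and 6 type II style (blue) genes. Filled points passed an adjusted p of 0.05, open points did not, and lines are medians. The red median stands well above the blue in BMDM (2.05 against 0.57). It stands below the blue in the intestine (0.04 against 0.78) and the spleen (0.29 against 0.78). Alveolar points lie below 0.

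The mean deviation of a subset from the 7 group means was also taken array by array. It ordered the subsets as the medians did in BMDM, Kupffer cells, spleen, intestine and adipose tissue. In peritoneum it reversed the order of the medians, with type II style above type I style on both arrays. In alveolar macrophages it set type II style higher, where the medians were near-equal. Type I style genes stood at 1.81 in BMDM, 0.67 in Kupffer cells, 0.16 in spleen, 0.05 and 0.06 in intestine, -0.06 and -0.04 in adipose tissue, -0.90 and -0.57 in peritoneum and -1.90 in alveolar macrophages. Type II style genes stood at 0.81 and 0.83 in intestine, 0.50 in Kupffer cells and in spleen, 0.46 in BMDM, -0.32 and -0.27 in adipose tissue, -0.39 and -0.33 in peritoneum and -1.62 in alveolar macrophages. The type II minus the type I value was 0.77 on both intestinal arrays and -1.35 on the BMDM array, the highest and the lowest of the 10. Direct comparisons ran the same way. BMDM exceeded each tissue for 13 (Kupffer cells) to 22 (alveolar macrophages) of the 23 type I style genes, where between 17.3% (alveolar) and 23.3% (intestinal) of all transcripts were higher in BMDM, with 19.7% against peritoneum, 20.6% against Kupffer cells, 23% against spleen and 20.2% against adipose tissue. For type II style genes that number was 1 of 6 against Kupffer cells, spleen and intestine, 3 against adipose tissue and 5 against peritoneum and lung. Oas3 and Zbp1, which passed the detection filter through the BMDM array alone, are among the type I style genes counted against every tissue. Between tissues, intestine exceeded peritoneum for 6 of 6 type II style genes (24.2% of all transcripts) and 9 of 23 type I style genes. It exceeded alveolar macrophages for 6 of 6 and 15 of 23 (24.4%), and adipose tissue for 4 of 6 and 2 of 23 (15.1%). Peritoneum exceeded spleen for 1 of 6 type II and 1 of 23 type I style genes (19.6%).

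**Figure D4:**
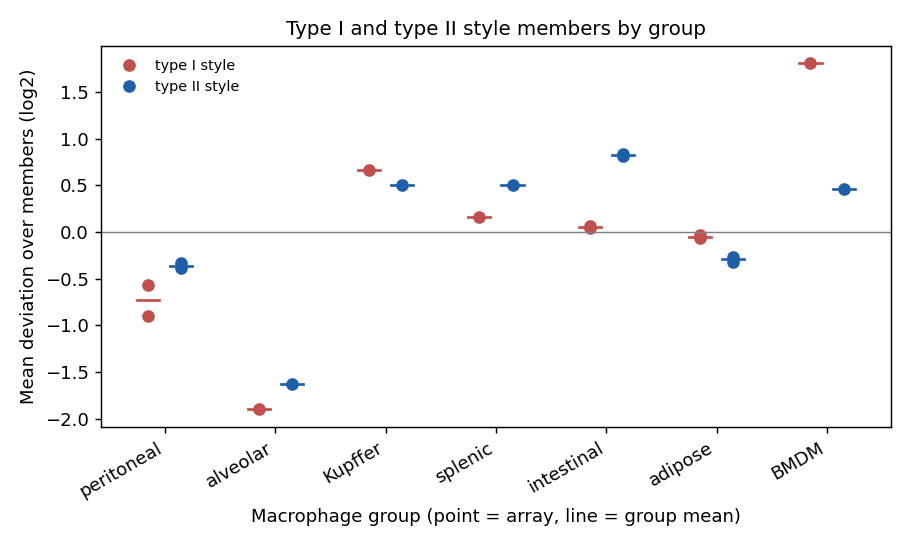
Mean log2 deviation of the 23 type I style genes (red) and the 6 type II style genes (blue) from their 7 group means, for each array (point), with the group mean as a line. The intestinal points are separated by 0.77 on both arrays with type II style above, and the BMDM points by 1.35 with type I style above.

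Some of these medians depended on the scaling or on 1 array. With arrays scaled to a common median, the Kupffer type II style median was -0.04, the splenic type I style median -0.04 and the adipose medians 0.49 and 0.53. Relative to all transcripts under that scaling they were 0.36, 0.24, -0.23 and -0.19. The means of the other groups include the outlying alveolar array: without it the type I style median fell to 0.14 in Kupffer cells, 0.08 in spleen, -0.38 in intestine and -0.63 in adipose tissue, and the type II style median in spleen to 0.29. Without the BMDM array the type I style medians were 0.90 in Kupffer cells, 0.65 in spleen, 0.59 in intestine, 0.43 in adipose tissue and -0.27 in peritoneum. Without the Kupffer array the adipose value was 0.17, and without the alveolar array the peritoneal value was -0.89. The alveolar and BMDM type I style medians stayed between -2.04 and -1.83 and between 1.77 and 2.10 without any other array.

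Within the array sets, an added comparison chosen after the data were seen, a group was compared with the other groups of its set only. In the dimmer set the type I style medians were 2.08 in BMDM, 0.70 in Kupffer cells, 0.35 in spleen, -0.88 in peritoneum and -1.97 in alveolar macrophages, and BMDM had the higher value for 22 of 23 genes, Oas3 and Zbp1 among them. The type II style medians in that set were 0.80 in BMDM, 0.55 in Kupffer cells, 0.92 in spleen, -0.66 in peritoneum and -1.96 in alveolar macrophages. BMDM had the higher value for 5 of these 6 genes. In the brighter set, where 3 groups remain, the type I style medians were 0.07 in intestine, 0.16 in adipose tissue and -0.24 in peritoneum. The type II style medians there were 1.11, -0.37 and -0.70, and the intestine had the higher value for 6 of 6 genes. BMDM and intestine lie in different sets, so the direct comparison of these groups cannot be told apart from the set. The same holds for every direct comparison of BMDM or alveolar, Kupffer or splenic macrophages with intestinal or adipose ones.

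Differences of single genes rested on 1 array as well. Of the 127 called differences of the 29 genes from the mean of the other groups, 58 lost their call or moved by over 1.5 times when some array was left out, and 38 of these lost it. Without the alveolar array this held for 38 and without the BMDM array for 25. In adipose tissue Ifitm3 was 2.24-fold higher, Ifi27l2a 2.09-fold higher and Oasl1 at least 1.38-fold higher than the mean of the others. Without the alveolar array, the log2 differences of Ifitm3 (0.30, adjusted p = 0.209) and Ifi27l2a (0.43, adjusted p = 0.0808) no longer passed, and that of Oasl1 went from 1.10 to 0.55. Oasl1 had 1.77 without the BMDM, 1.68 without the Kupffer and 0.70 without the splenic array. Without the BMDM array the difference of Ifit3 in adipose tissue went from -1.39 to -0.77. In the intestine Ifit2, at least 2.05-fold higher by the bound, had 1.43 with all arrays, 0.76 without the alveolar and 2.15 without the BMDM array. Ifit3 there went from -1.75 to -1.15 without BMDM, and Rsad2 in the spleen from 2.32 to 1.51 without the alveolar array. Gbp3 went from 1.52 to 0.85 in peritoneum and from -1.18 to -1.92 in BMDM without the alveolar array. Psmb8 in the intestine went from 0.82 to 0.68 (adjusted p = 0.0809) without intestinal replicate 2.

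The number of genes called also rested on single arrays in 3 groups. Spleen had 10 called genes with all arrays and 18, 20 and 17 without peritoneal replicate 1, peritoneal replicate 2 and BMDM. Intestine had 20, and 11 without replicate 1 and 10 without replicate 2 of its own. Adipose tissue had 16, and 9 and 9 without its replicates 1 and 2. With the array sets as a block, Kupffer cells had 19 called genes in place of 12 and spleen 18 in place of 10, and since the peritoneal pair alone links the sets, that block rests on it.

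Genes of the pathway itself were read from lists of the same kind. All 8 interferon genes on the array (Ifnb1, Ifng, Ifna2, Ifna4, Ifna5, Ifne, Ifnk and Ifnl3) were detected on no array, so no difference in ligand RNA was detectable at this signal. The Ifnar1 probe was not detected either. Ifnar2 measured 9.03 and 8.66 in peritoneal, 8.24 in alveolar, 10.45 in Kupffer, 11.15 in splenic, 9.40 and 9.31 in intestinal and 9.03 and 9.12 in adipose macrophages and 8.97 in BMDM, with spleen highest and alveolar lowest. Ifngr1 was 2.72-fold lower in BMDM. Irf9, the DNA-binding partner of Stat2, was 5.08-fold lower in alveolar macrophages (7.47, against 9.35 to 10.13 elsewhere) and had 0.34 in BMDM (adjusted p = 0.176). The 3 probes of the kinase Jak1 disagreed, and no direction is given for it.

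Irf7, the factor that amplifies type I interferon and is itself induced by it, measured 7.74 and 7.46 in peritoneal, 5.62 in alveolar, 11.39 in Kupffer, 10.09 in splenic, 8.53 and 8.53 in intestinal and 7.69 and 7.40 in adipose macrophages and 11.21 in BMDM. It was not detected on the alveolar array, and its order, with Kupffer cells, BMDM and spleen on top, was close to that of Rsad2. It was at least 7.13-fold higher in Kupffer cells and at least 6.19-fold higher in BMDM. Irf1, the factor of the interferon gamma response, measured 9.91 and 10.18 in peritoneal, 10.62 in alveolar, 11.45 in Kupffer, 11.90 in splenic, 12.42 and 12.59 in intestinal and 11.48 and 11.60 in adipose macrophages and 10.00 in BMDM. Intestine was highest (2.99-fold higher) and BMDM lay with the peritoneal arrays (2.54-fold lower). The feedback inhibitor Socs3 was 7.04-fold higher in intestine and 10.2-fold lower in spleen, whereas Socs1 did not pass among groups (adjusted p = 0.289).

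Of 14 tested sensors and adaptors upstream of interferon, 3 were higher and 2 lower in BMDM, and 1 higher and 9 lower in peritoneum (background 22.8% and 29.7%, and 20.9% and 23.6%). Tlr7, a sensor of single-stranded RNA, was highest in adipose tissue (11.18 and 11.26, against 9.84 in BMDM). Sting1, the adaptor for DNA sensing, was highest in intestine (8.22 and 8.39), with adipose tissue close below (mean 8.12), against 6.45 in BMDM.

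Other type I responsive genes, 23 tested, were 17 higher and 0 lower in BMDM (22.8% and 29.7% of all transcripts), 12 higher and 1 lower in Kupffer cells (14.4% and 15.3%) and 8 and 3 in spleen (19.3% and 20.4%). They were 2 and 12 in peritoneum (20.9% and 23.6%) and 1 and 18 in alveolar macrophages (16.3% and 20%). In intestine they were 5 and 3 (24.8% and 22%) and in adipose tissue 6 and 7 (22.2% and 20.5%). Examples in BMDM were Ube2l6, the conjugating enzyme for Isg15 (at least 11.1-fold higher), and Oas1g (4.27-fold higher). In alveolar macrophages the relatives of Ifitm3 were low as well, with Ifitm1 23.7-fold lower and Ifitm2 8.26-fold lower, though whether the probes of these similar genes share RNA was not tested. Ifi205 went against the list: it was detected only on the alveolar, Kupffer and BMDM arrays (9.04, 9.06 and 9.03). With arrays scaled to a common median the BMDM count was 7 higher and 0 lower, with a list median 1.02 above that of all transcripts.

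Other type II responsive genes, 17 tested, were 14 higher and 2 lower in intestine (24.8% and 22% of all transcripts), 9 and 0 in Kupffer cells (14.4% and 15.3%) and 7 and 1 in spleen (19.3% and 20.4%). They were 7 and 6 in BMDM (22.8% and 29.7%) and 4 and 7 in alveolar macrophages (16.3% and 20%). In adipose tissue they were 1 and 12 (22.2% and 20.5%) and in peritoneum 1 and 10 (20.9% and 23.6%). Cxcl9, a chemokine of the interferon gamma response, measured 5.22 and 4.74 in peritoneal, 7.77 in alveolar, 10.93 in Kupffer, 10.10 in splenic, 13.05 and 12.92 in intestinal and 7.91 and 7.89 in adipose macrophages and 6.74 in BMDM. It was at least 26.3-fold higher in intestine and was not detected in peritoneum. Ciita, the switch for class II antigen presentation, measured 5.68 and 5.01 in peritoneal, 7.89 in alveolar, 9.16 in Kupffer, 8.87 in splenic, 11.78 and 11.99 in intestinal and 9.79 and 9.76 in adipose macrophages and 4.59 in BMDM, highest in intestine and not detected in BMDM. The genes lower in intestine were Tapbp (3.11-fold lower) and Psme2 (1.68-fold lower), partners of class I loading and the proteasome, and Psme2 went from -0.75 to -0.49 without the BMDM array and lost its call without intestinal replicate 2 (adjusted p = 0.0697). Cd274, the checkpoint ligand, was 4.88-fold higher in alveolar macrophages, against the direction of the listed members there. Scaled to a common median, intestine had 15 higher and 1 lower, and the list median lay 1.12 above that of all transcripts.

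Markers of other cell types were read beside these results, and their part was not tested. Plasmacytoid dendritic cells are known as strong interferon producers. Of their 6 markers, Ccr9, Klk1 and Pacsin1 were at the undetected level on every array, and Siglech was detected in intestine (6.83 and 6.43) and adipose tissue (8.35 and 8.37). Ly6d was detected in spleen (9.51), in intestine and on peritoneal replicate 1, and Tcf4 on every array. The summed linear level of the 6, most of it from Tcf4, ranged from 1021 in alveolar macrophages and 1613 in BMDM to 6818 on adipose replicate 2. Conventional dendritic cell markers were detected for 0 of 6 genes in BMDM and 4 of 6 in intestine, with Flt3 undetected throughout. Their sum was 210.1 in BMDM, 1960 and 1861 in intestine and between 235.4 and 1461 on the other arrays.

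Monocyte markers were detected for 3 of 3 genes in intestine and BMDM and for 0 of 3 in peritoneum, with sums of 1709 and 1723 in intestine, 649.4 in BMDM and 89.4 to 2131 elsewhere. T and NK cell markers, a source of interferon gamma, were detected for 4 of 7 genes in spleen and for 2 and 3 of 7 in intestine, 3 in alveolar macrophages and 0 in BMDM and peritoneum. Their sum was 801.9 in spleen, 514.7 in alveolar macrophages, 385.8 in Kupffer cells, 346.3 and 349.9 in intestine, 219.7 in BMDM and 193.5 to 221.8 in adipose tissue and peritoneum, and Gzma and Ncr1 were undetected throughout. The B cell markers Cd79a (8.63) and Cd79b (12.38) were highest in spleen. Cd79b was detected on every array, and Ms4a1 and Pax5 were undetected throughout. Neutrophil markers were detected for 1 to 3 of 5 genes on every array. On the Kupffer array the hepatocyte marker Ttr (9.68; Alb undetected) was detected, and the endothelial marker Cdh5 was highest (12.21). Another endothelial marker, Pecam1, measured 12.62 in spleen, 12.19 and 12.36 in intestine and 11.78 in Kupffer cells. The erythroid marker Hba-a1 was highest in spleen (15.42) and Kupffer cells (13.98), was between 10.10 and 12.32 in alveolar, intestinal and adipose macrophages and was undetected in BMDM. The alveolar array had the epithelial marker Krt19 and the adipocyte marker Cidec (11.98), and the adipose arrays Adipoq (8.98 and 9.09). BMDM had no detected T and NK, conventional dendritic, epithelial, adipocyte or erythroid marker.

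The genes most like each subset over the 10 arrays were named by Pearson's r with the mean of the standardised members, among 9135 candidates, as a description. The arrays share normalization, and the BMDM and alveolar arrays weigh on every r. For the type I style genes they were Alg2 (0.976), Oas1g (0.966), Sp100 (0.964), Btbd10 (0.933), Trim30a (0.931), Tank (0.928), Wdr11 (0.918), Dck (0.913), Tent4a (0.906) and Slc25a22 (0.905). Of these, Oas1g, Sp100 and Trim30a were on the lists of interferon responsive genes. For the type II style genes they were Nlrc5 (0.984), Snx18 (0.947), Nedd4l (0.938), Fyb (0.936), Susd6 (0.932), Wrap53 (0.930), Osgin1 (0.927), Slamf8 (0.924), Scly (0.916) and Irf5 (0.913). Nlrc5 is the known switch for class I antigen presentation genes, and it and Irf5 were on the pathway lists.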

How the data were processed

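RNA of 10 arrays in 7 groups was measured. The authors deposited raw signals, an intensity per probe with no normalization per the file headers, and a detection p-value per probe, also per the file headers. A second deposited table holds intensity values on a linear scale that look quantile normalized. Scanner and software are not given in the sources used here. On the deposited signals, neqc (limma 3.58.1, R 4.3.3) estimated the background through the detection p-values, then applied quantile normalization and log2 with an offset of 16. Of 46632 probes, a filter asking for 1 array or more with detection p below 0.01 left 12838 transcripts, and 29976 probes had 1 symbol. One mean per group was fitted by limma over all arrays (3 residual degrees of freedom), with Benjamini-Hochberg adjustment over all 12838 and a threshold of 0.05. Each gene was read from its brightest probe by the second table. The members and lists were chosen with earlier results of these data known. Members with values for every array were, per group, up to 4 called genes with the largest difference, plus genes detected in 1 group or none, and the other listed genes by choice. Alternatives changed the background, scaling, filter, probe, array set, replicate number and arrays used. The script was tested on simulated data.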

Additional observations from a re-analysis of the deposited data

How the results depend on the processing

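The 28 named differences were, per group, up to 4 called genes with the largest difference in these same data, a choice that favours keeping the call. Direction and call were kept in 511 of 515 values of these differences under 19 alternatives, 10 of them leaving out 1 array, and none reversed. The 4 that no longer passed were Ddx58 in intestine (-0.28, adjusted p = 0.117) and Ifi27l2a in adipose tissue (0.40, adjusted p = 0.0508) with the mean of all probes, and Ifitm3 (0.30) and Ifi27l2a (0.43) in adipose tissue without the alveolar array. Leaving out each array in turn for all 127 called differences of the 29 genes, added after the data were seen, 58 moved by over 1.5 times or lost their call. The number of genes that differed among groups stayed within 1.5 times of 28. Medians and counts over the list moved more, and the cause was not tested. Without background correction, the type I style median was -1.20 in alveolar macrophages, 0.32 in Kupffer cells, 0.0916 in spleen, -0.37 in adipose tissue and 1.49 in BMDM, and the type II style median was -1.41 in alveolar macrophages and 0.58 in spleen. With arrays scaled to a common median, the type I style median was -2.11 in alveolar macrophages, 0.0542 in Kupffer cells, -0.0362 in spleen, 0.50 in intestine, 0.49 in adipose tissue and 1.81 in BMDM, and the type II style median was -2.57 in alveolar macrophages, -0.0432 in Kupffer cells, 0.44 in spleen, 1.42 in intestine, 0.53 in adipose tissue and 0.39 in BMDM, and the genes called were 12 in peritoneum, 5 in Kupffer cells and 6 in spleen. With log2 of the authors' deposited series values, the type I style median was -1.07 in alveolar macrophages, 0.30 in Kupffer cells, 0.0766 in spleen, -0.33 in adipose tissue and 1.44 in BMDM, and the type II style median was -1.33 in alveolar macrophages and 0.55 in spleen. Without a filter on undetected probes, the type I style median was -1.60 in alveolar macrophages and 1.78 in BMDM. With detection on at least 2 arrays, the type I style median was -0.61 in peritoneum, -2.31 in alveolar macrophages, 0.32 in intestine and 1.94 in BMDM. With the mean of all probes of a gene, the type I style median was -1.30 in alveolar macrophages, 0.35 in Kupffer cells and -0.0973 in intestine, and the type II style median was -1.57 in alveolar macrophages, 0.61 in intestine and 0.78 in BMDM. With the brightest probe chosen after normalization, the type I style median was 1.82 in BMDM. With the array set as a block, the type I style median was 0.75 in Kupffer cells and -0.20 in intestine, and the type II style median was 0.57 in Kupffer cells and 0.64 in spleen, and the genes called were 19 in Kupffer cells and 18 in spleen. Leaving out 1 array at a time, the type I style median ranged from -0.89 to -0.27 in peritoneum, from -2.04 to -1.83 in alveolar macrophages, from 0.14 to 0.90 in Kupffer cells, from 0.0758 to 0.65 in spleen, from -0.38 to 0.59 in intestine, from -0.63 to 0.43 in adipose tissue and from 1.77 to 2.10 in BMDM. Leaving out 1 array at a time, the type II style median ranged from -0.999 to -0.61 in peritoneum, from -1.94 to -1.79 in alveolar macrophages, from 0.23 to 0.48 in Kupffer cells, from 0.29 to 0.93 in spleen, from 0.63 to 0.90 in intestine, from -0.62 to -0.20 in adipose tissue and from 0.42 to 0.74 in BMDM. The genes called then ranged from 9 to 20 in spleen, from 10 to 22 in intestine and from 9 to 24 in adipose tissue. The differences in adipose tissue ranged from 0.30 to 1.56 for Ifitm3 and from 0.43 to 1.26 for Ifi27l2a. Replicate numbers did not pair the arrays: deviations of same-numbered arrays correlated at 0.045, -0.143 and -0.093. With the replicate number as a block, 28 genes differed among groups and 21, 24, 12, 12, 18, 15 and 23 were called in peritoneum, alveolar macrophages, Kupffer cells, spleen, intestine, adipose tissue and BMDM, each within 1.5 times of the count without it. With 10 arrays and 4 groups of 1, precision is limited, and a gene near the detection threshold has only a bound.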
